A study of Mus musculus with 8 samples.

Results

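The 10 genes described here build triglyceride in the liver cell or load it onto very low density lipoprotein (VLDL), and they were chosen by name: Gpam, Agpat2, Lpin1, Lpin2, Dgat1, Dgat2, Mogat1, Pnpla3, Mttp and Tm6sf2. On the arrays, 15 of 55681 probes and 10 of 34836 gene names belong to them. Their RNA was measured in liver of 4 NZO mice (strain NZO/HiBomDife), an obese and diabetes-susceptible inbred strain, and of 4 B6 mice (C57BL/6), a lean and diabetes-resistant inbred strain. All mice were males of 6 weeks on a diet with 45% fat, and each mouse had 1 array for 1 colour. The mice are named by strain and by the number in the labels, as in NZO 003.

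Liver cells make triglyceride by adding fatty acids one after another to a glycerol backbone. In the main route, glycerol-3-phosphate is acylated by enzymes such as Gpam, acylated again by Agpat2 and its relatives, stripped of its phosphate by the lipins, and acylated a last time by Dgat1 or Dgat2. Mogat1 enters this route from the side by making diacylglycerol from monoacylglycerol, and Pnpla3 is a lipid droplet protein whose human variant is a known risk factor for fatty liver. Some of the triglyceride is stored in droplets, and some is moved by Mttp onto apolipoprotein B and leaves the cell as VLDL, a process that also needs Tm6sf2.

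Levels are log2 intensities relative to the 75th percentile of the array, so 0 marks a probe at that percentile and a difference of 1 is a doubling of the signal. The percentile itself was a processed intensity of 119 to 142 on the NZO arrays and of 136 to 159 on the B6 arrays. Between 50.4% and 55.0% of the spots in NZO and between 53.1% and 60.1% in B6 lay well above background, and saturation was found at 0 spots. Probes differ in how strongly they bind, therefore levels of members and list genes are compared between mice at the same probe, not between genes. The genomes of B6 and NZO differ at many single bases. Such a difference under a probe can change its signal in NZO or B6 alone, and whether any lies under the probes was not tested. The sums over cell type markers given below add several probes and are weighted by how strongly each binds. Where a gene has a pair of probes, they are called brighter and dimmer by their mean over all 8 arrays, only to tell them apart. In NZO alone the dimmer Pnpla3 probe had the higher mean. Precision is limited by the 8 arrays, and in whole liver fewer cells of a type and less RNA per cell cannot be told apart.

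The 30 leading bases of the probes on which the results turn are shown as the files give them, to let a reader place each signal on its transcript. They stand for the probes of Pnpla3, Mttp, Mogat1, Lpin2 and Tm6sf2, the genes with the largest differences or with no overlap between the strains at every probe. Capitals are not used, since no part of a probe was singled out.
Pnpla3, dimmer probe A_51_P389265: gcaaactagtggaacagcagaaggattgaa
Pnpla3, brighter probe A_55_P2025514: tatccagtggctacaatgggcgacatccca
Mttp, probe A_55_P1970299: ttaagatgtttgtaaagagcagtggagaac
Mogat1, probe A_55_P2037428: ccttcctccaaggcataagaaaggaaggca
Lpin2, brighter probe A_66_P138976: agcagaagaacaaatgcacagttcatgtct
Lpin2, dimmer probe A_55_P2072872: ccaggcacacagccatatatcaggcaaaac
Tm6sf2, probe A_55_P2049122: cccctcctggaatctagccatcacctcttc

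A probe was tested when every array of NZO, of B6 or of both showed it well above background, which held for 14 of the 15. In NZO, 2 of these 14 probes were higher and 0 were lower at a Benjamini-Hochberg adjusted p of at most 0.05 from limma. Over all 27623 probes tested with limma, 6.77% were called higher and 7.44% lower. The called probes belong to Mttp and to Pnpla3 (its dimmer probe). The latter was well above background on 1 B6 array and was tested because of its NZO levels alone. When all 8 arrays had to be above background, the Mttp probe was the 1 member probe called. Without adjustment, p was at most 0.05 for 6 higher and 2 lower member probes with limma and for 5 higher and 1 lower with the methods' t-test. Of all tested probes, 13.7% were higher and 14.1% lower at this unadjusted p with limma, and 13.2% and 11.6% with the methods' t-test. The methods set thresholds of 0.05 for p, taken here as unadjusted, and of 0.7 for the size of the log2 fold change. With these and the p of limma, 3 member probes were higher (both of Pnpla3 and that of Mogat1) and 2 were lower (both of Lpin2). With the methods' t-test at the same thresholds, 1 was higher (the dimmer Pnpla3 probe) and 1 was lower (the dimmer Lpin2 probe). At these thresholds 5.17% of all tested probes were higher and 7.08% lower with limma, and 4.67% and 5.82% with the methods' t-test. The median log2 fold change of the 14 probes was 0.20, and that of all tested probes was 0.01. The former includes the dimmer Pnpla3 probe and the Mogat1 probe, both tested for their NZO levels alone, which favours a higher median.

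**Figure D1:**
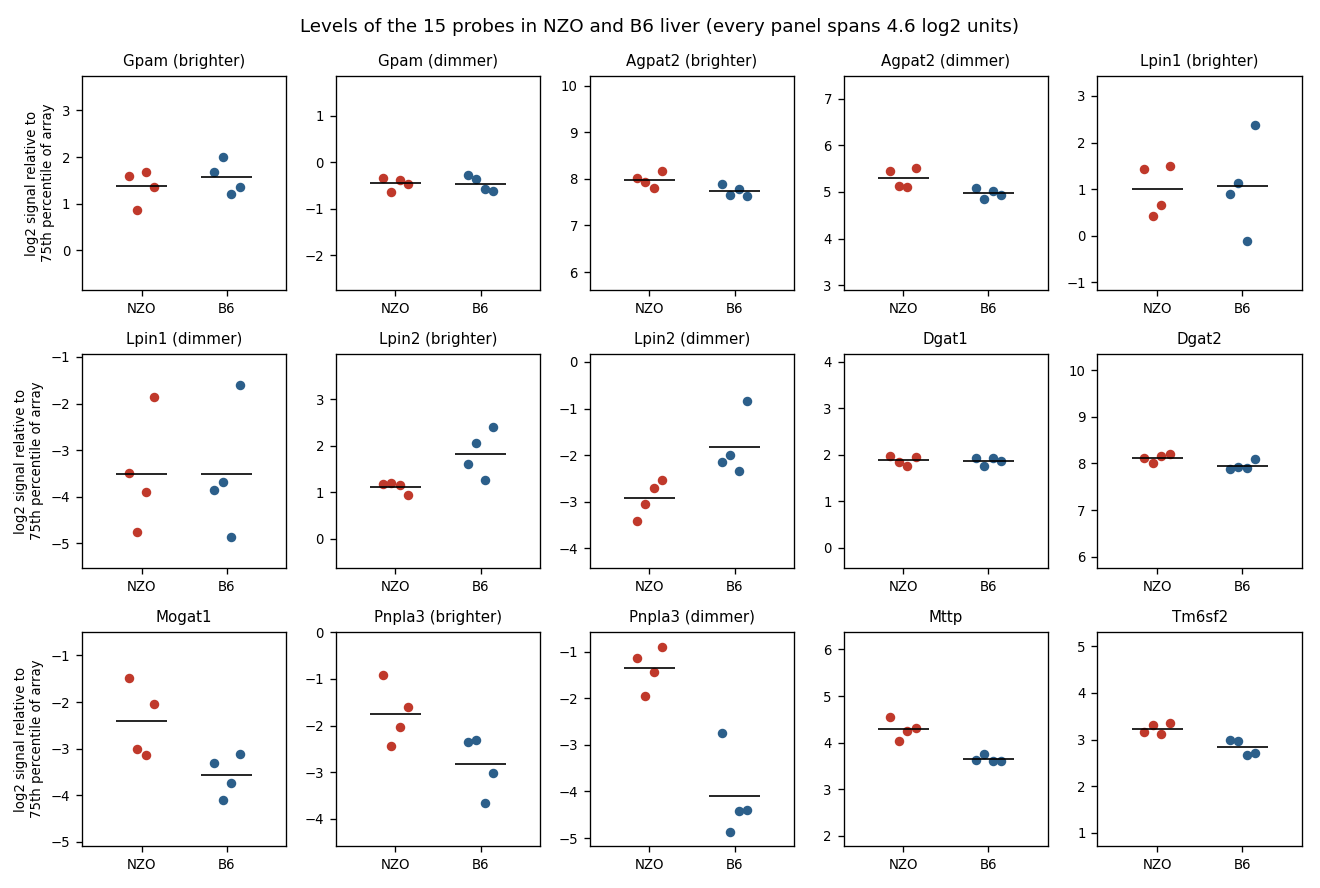
Level of each of the 15 probes (y axis, log2 signal relative to the 75th percentile of the array) in the NZO mice (red) and the B6 mice (blue), 1 point per mouse and a line at the mean of 4. The strains do not overlap in the panels of Mttp, Tm6sf2, Lpin2 (both probes), Pnpla3 (dimmer) and Agpat2 (dimmer), and the points of Lpin1 are spread widest. The dimmer Pnpla3 probe was kept for its NZO levels alone. How often the strains do not overlap among all tested probes is not given here, so the lack of overlap is no result about the members.

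Mttp, the transfer protein that lipidates apolipoprotein B, was expressed at higher levels in NZO liver. Its probe lies on mm9 at chr3:137753868-137753927 on the minus strand. The levels were 4.55 in NZO 003, 4.03 in NZO 007, 4.26 in NZO 009 and 4.31 in NZO 011. In the B6 mice they were 3.62 in B6 009, 3.76 in B6 010, 3.61 in B6 011 and 3.60 in B6 015. The lowest NZO mouse thus lay above the highest B6 mouse, and the B6 mice lay closer together than the NZO mice. Means were 4.29 ± 0.21 (SD, n = 4) and 3.65 ± 0.07 (SD, n = 4), a 1.56-fold difference (log2 0.64 with a standard error, SE, of 0.12, 95% confidence interval 0.36 to 0.93, limma adjusted p = 0.00985). The difference was 0.70 among arrays of the first scan day and 0.41 on the second. Here and below, the second day has NZO 007 as its only NZO array. On the slide that held both strains, with NZO 003 as its only NZO array, the difference was 0.88. The adjusted p ranged from 0.00501 to 0.137 over the alternatives. The call was lost in 4 of 21 alternatives, among them the values of the deposited table (0.37, limma adjusted p = 0.111) and the methods' t-test (adjusted p = 0.0592). Another of the 4 was the slide as a fixed term. It takes its strain difference from the slide that held both strains alone and so repeats the 0.88.

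Tm6sf2, a membrane protein of the secretory pathway that is needed to lipidate VLDL fully, is read by 1 probe at mm9 chr8:72603892-72603951 on the plus strand. Its levels in NZO 003, 007, 009 and 011 were 3.17, 3.31, 3.12 and 3.35. In B6 009, 010, 011 and 015 they were 2.99, 2.98, 2.67 and 2.70. Every NZO mouse lay above every B6 mouse. The fold of 1.32 (log2 0.40, SE 0.12, 95% confidence interval 0.13 to 0.67) did not pass the adjusted threshold (limma adjusted p = 0.0558). The log2 difference was 0.37 on the first scan day and 0.48 on the second, where NZO 007 stood alone for NZO.

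Pnpla3 was read by a probe that was above background in all NZO mice and in 1 B6 mouse, and by a probe that was above background in all 8 mice. The former, called dimmer, lies on mm9 at chr15:84019823-84019882 on the plus strand, and the files put it at base 4520 of the transcript. The levels were -1.14 in NZO 003, -1.95 in NZO 007, -1.44 in NZO 009 and -0.89 in NZO 011. Only 1 of the 4 B6 mice, B6 009, was well above background there, with -2.74. The values of B6 010, 011 and 015 were -4.86, -4.43 and -4.39. All NZO mice thus lay above all B6 mice, and B6 009 stood well above the other B6 mice. Means were -1.36 ± 0.46 (NZO) and -4.10 ± 0.93 (B6) with SD over 4 mice each, a log2 difference of 2.75 (SE 0.45, limma adjusted p = 0.00449). Since 3 of the 4 B6 values lay at background, this size and its error depend on how the background was handled. The probe was kept for its NZO levels alone, therefore a difference in this direction was built into the choice and the p is no independent support. Those of the 3 values that lay below the lowest level measured above background on their array were also set to that level. The mean of NZO was then 5.62-fold higher (log2 2.49). B6 011 lay above that level on its array (-4.43 against -4.51) and kept its value. The 5.62-fold is thus a difference of means for the processed signal alone and no lower bound.

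The brighter Pnpla3 probe, at base 1137 of the same transcript (mm9 chr15:84016440-84016499), was well above background on all 8 arrays. It read -0.92, -2.45, -2.03 and -1.61 in NZO 003, 007, 009 and 011. In B6 009, 010, 011 and 015 it read -2.34, -2.31, -3.66 and -3.01. Here NZO 007 lay below B6 009 and B6 010, so the strains overlapped. The log2 fold change was 1.08 (SE 0.40, 95% confidence interval 0.17 to 1.99), which did not pass the adjusted threshold (limma adjusted p = 0.119). On the first scan day the mean of NZO was higher by 3.47 at the dimmer and by 1.14 at the brighter probe. On the second day the only NZO mouse, NZO 007, lay above the B6 mean by 1.63 and 0.56. The size at the dimmer probe moved with the background correction, to 0.77 with normexp (limma adjusted p = 0.00109) and to 1.01 in the deposited table (limma adjusted p = 0.00327), and the methods' t-test gave it an adjusted p of 0.052 (range over its alternatives 0.000403 to 0.186). The brighter probe moved too. It was at 0.45 with normexp (limma adjusted p = 0.0847) and 0.45 in the deposited table (limma adjusted p = 0.119).

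Mogat1, the monoacylglycerol acyltransferase, is read by 1 probe at mm9 chr1:78534677-78534736 on the plus strand. It was well above background in all NZO mice and in 3 of the 4 B6 mice, with B6 010 the exception, so it was kept for its NZO levels alone and a higher NZO level was favoured by the choice. NZO 003 and NZO 011 had levels of -1.49 and -2.04, and NZO 007 and NZO 009 had -3.0 and -3.14. The B6 levels were -3.31, -4.10, -3.74 and -3.12 in B6 009, 010, 011 and 015. The NZO mice thus fell into a higher and a lower pair. Of the lower pair, NZO 007 lay just above and NZO 009 just below the highest B6 mouse. NZO averaged -2.42 ± 0.79 (SD, n = 4) and B6 -3.57 ± 0.44 (SD, n = 4). The B6 mean thus holds 1 value at background. This 2.22-fold difference (log2 1.15, SE 0.39, 95% confidence interval 0.25 to 2.05) was past the thresholds of the methods with the p of limma, not with that of the methods' t-test, and not past the adjusted one (limma adjusted p = 0.0959). Within the first scan day it was 1.39 and within the second 0.53, and normexp background correction reduced it to 0.40 (limma adjusted p = 0.066).

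**Figure D2:**
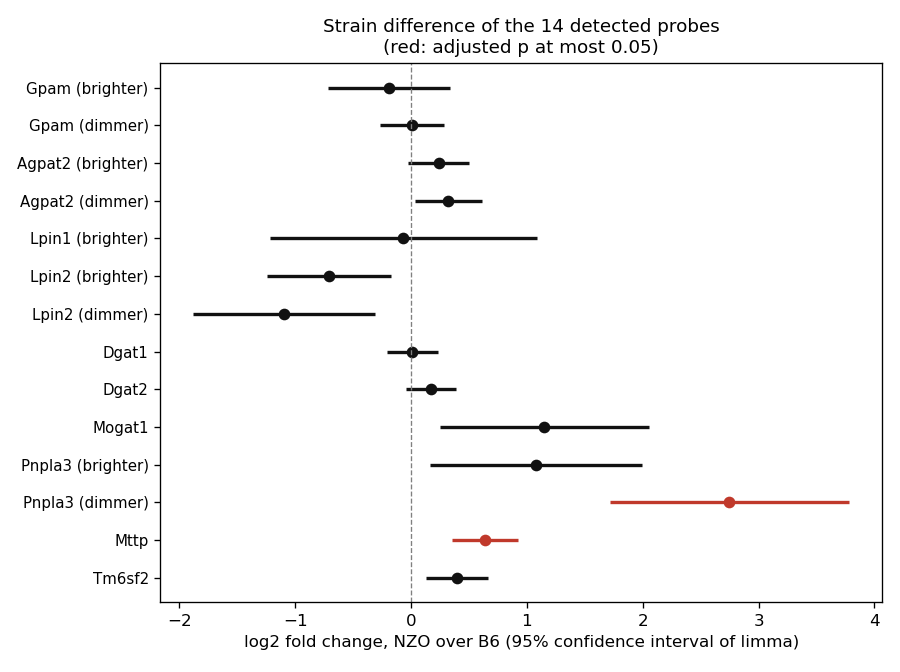
Log2 fold change of NZO over B6 (x axis) with the 95% confidence interval from limma for the 14 detected probes, in red where the adjusted p is at most 0.05. The intervals of Gpam, Lpin1 (brighter), Dgat1, Dgat2 and Agpat2 (brighter) include 0, and that of Lpin1 is the widest at -1.22 to 1.09.

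The lipins remove the phosphate from phosphatidate to give diacylglycerol, and Lpin1 also acts with nuclear factors on genes of fatty acid oxidation. Lpin2 had the only member probes lower in NZO at the thresholds of the methods, both of them with the p of limma and the dimmer one with the methods' t-test. Its brighter probe (mm9 chr17:71596935-71596994, plus strand) had levels of 1.17, 1.2, 1.16 and 0.94 in NZO 003, 007, 009 and 011. In B6 009, 010, 011 and 015 the levels were 1.6, 2.05, 1.25 and 2.40. The NZO mice lay close together and the B6 mice did not, and B6 011 came close to the NZO range. The fold change was -0.71 on the log2 scale (SE 0.23, 95% confidence interval -1.24 to -0.17, limma adjusted p = 0.086).

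The dimmer Lpin2 probe (mm9 chr17:71581567-71581626) was annotated to another transcript of the gene. Its levels were -3.42, -3.05, -2.70 and -2.54 in NZO 003, 007, 009 and 011, and -2.15, -2.0, -2.33 and -0.84 in B6 009, 010, 011 and 015. Again no NZO mouse reached the lowest B6 mouse. The log2 fold change was -1.09 (SE 0.34, 95% confidence interval -1.88 to -0.31, limma adjusted p = 0.0724), and that of the mean over both probes was -0.90 (SE 0.26, limma adjusted p = 0.0549). In a fit that included the scan day, Lpin2 passed the adjusted threshold, at -0.81 (limma adjusted p = 0.0404) for the brighter and -1.23 (limma adjusted p = 0.0415) for the dimmer probe. Without B6 011 the brighter probe passed at -0.90 (limma adjusted p = 0.0272). Of 22 alternatives for each, the brighter probe passed in 3 and the dimmer in 2. The highest limma adjusted p was 0.273 and 0.332. Within the first scan day the difference at the brighter probe was -1.13 and within the second -0.23. At the dimmer probe it was -1.46 and -0.81, and with normexp background correction -0.26 (limma adjusted p = 0.302).

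Lpin1 varied most from mouse to mouse. Its brighter probe (mm9 chr12:16543695-16543754, minus strand) read 1.44, 0.43, 0.65 and 1.5 in NZO 003, 007, 009 and 011. The B6 levels were 0.89, 1.14, -0.12 and 2.38 in B6 009, 010, 011 and 015. The B6 mice thus spanned 2.50 log2 units and enclosed all NZO mice. The difference between the strains was -0.07 (SE 0.50, 95% confidence interval -1.22 to 1.09, limma adjusted p = 0.948), an interval that leaves room for a doubling in either direction. The dimmer probe was well above background in 2 NZO and 3 B6 mice and was not tested. It read -3.48, -4.75, -3.91 and -1.86 in NZO 003, 007, 009 and 011 and -3.84, -3.69, -4.86 and -1.61 in B6 009, 010, 011 and 015. Both Lpin1 probes put the 4 mice of each strain in the same order, but at the dimmer probe this order includes values not above background.

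The spread between mice of a strain differed widely among the genes. The pooled SD within strains was 0.82 at the brighter Lpin1 probe, and 4.59% of all tested probes had a larger one. It was 0.73 and 0.65 at the dimmer and brighter Pnpla3 probes, 0.64 for Mogat1, and 0.55 and 0.36 at the dimmer and brighter Lpin2 probes. The median over all tested probes was 0.23. Dgat1 and Dgat2 were the steadiest genes, both with an SD of 0.09, and Tm6sf2 (0.14) and Mttp (0.16) also lay below the median. In B6 the order B6 015, 010, 009, 011 from high to low was shared by the brighter Lpin1 probe and both Lpin2 probes, whereas the Lpin2 probes ordered the NZO mice differently from each other. Across the 15 probes, NZO 003 and NZO 011 were each among the 2 highest NZO mice at 12, and NZO 007 was the lowest at 8. B6 011 was the lowest B6 mouse at 7. The probes of a mouse share 1 array, so these counts describe the arrays and are no test.

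**Figure D3:**
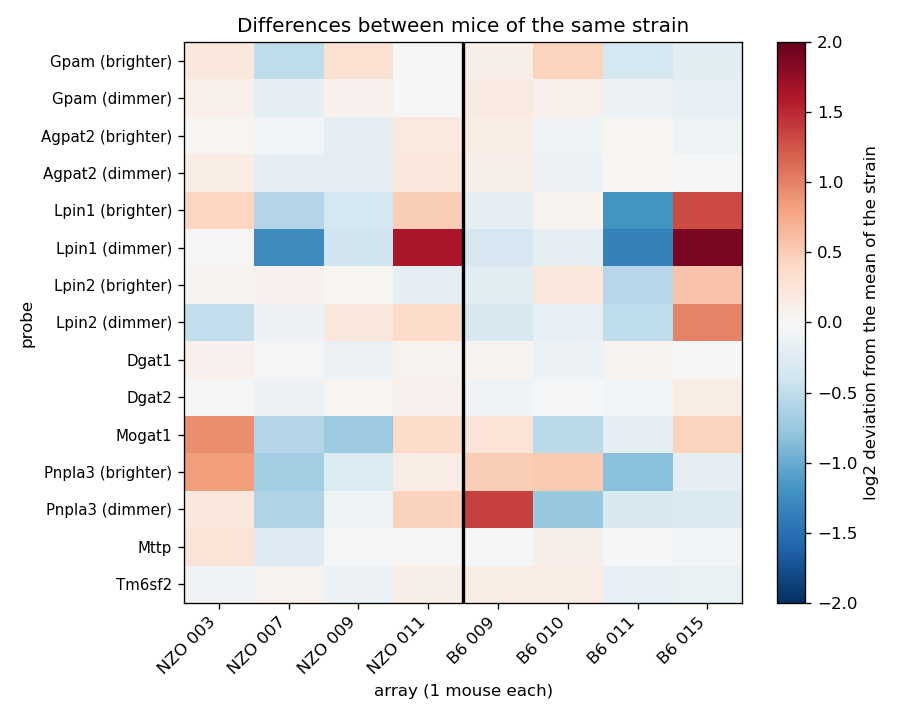
Deviation of each mouse (columns) from the mean of its strain at each of the 15 probes (rows), in log2 units, red above and blue below the mean. Lpin1 has the strongest colours, with B6 015 and NZO 011 high and B6 011 and NZO 007 low, and the rows of Dgat1 and Dgat2 are nearly blank.

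Of the acyltransferases of the main route among the 10 genes (Gpam, Agpat2, Dgat1 and Dgat2), none passed the adjusted threshold at any probe. Gpam encodes the mitochondrial enzyme of the entry step. Its dimmer probe (mm9 chr19:55144289-55144348, minus strand) read -0.34, -0.63, -0.37 and -0.46 in NZO 003, 007, 009 and 011 and -0.27, -0.36, -0.58 and -0.63 in B6 009, 010, 011 and 015. The brighter one (mm9 chr19:55143274-55143333) read 1.59, 0.87, 1.68 and 1.36 and 1.68, 2.0, 1.22 and 1.36 in the same mice. The ranges of the strains overlapped at both. The log2 fold changes were 0.01 (95% confidence interval -0.27 to 0.28, limma adjusted p = 0.974) and -0.19 (-0.71 to 0.34, limma adjusted p = 0.636).

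Agpat2, the acyltransferase whose loss causes lipodystrophy, is read at mm9 chr2:26448610-26448669 and chr2:26449107-26449166 on the minus strand. The brighter probe gave 8.03, 7.93, 7.80 and 8.18 in NZO 003, 007, 009 and 011, and 7.90, 7.66, 7.79 and 7.64 in B6 009, 010, 011 and 015. At the dimmer probe the values were 5.44, 5.13, 5.11 and 5.52 in NZO and 5.10, 4.85, 5.01 and 4.94 in B6. Only the dimmer probe kept the strains apart, by a gap between NZO 009 and B6 009 that was far smaller than the range within either strain. Neither passed the adjusted threshold, with log2 fold changes of 0.24 (95% confidence interval -0.03 to 0.50, limma adjusted p = 0.223) and 0.32 (0.03 to 0.62, limma adjusted p = 0.141).

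Dgat1 and Dgat2 are unrelated enzymes of the final acylation. Dgat2 (mm9 chr7:106302215-106302274, minus strand) had levels of 8.12, 8.01, 8.16 and 8.21 in NZO 003, 007, 009 and 011 and of 7.89, 7.92, 7.90 and 8.10 in B6 009, 010, 011 and 015. B6 015 alone of the B6 mice reached the NZO range. Its log2 fold change was 0.17 (95% confidence interval -0.05 to 0.39, limma adjusted p = 0.285). Dgat1 (mm9 chr15:76333128-76333274, minus strand) read 1.97, 1.85, 1.76 and 1.96 in the NZO mice and 1.93, 1.75, 1.94 and 1.87 in the B6 mice, in the same order. The strains overlapped, and the log2 fold change of 0.01 had a 95% confidence interval of -0.21 to 0.23 (limma adjusted p = 0.951), so a difference above 1.17-fold in favour of NZO lay outside it.

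Further genes of the pathway were read from 3 lists, other genes of triglyceride synthesis (18), partners in the assembly and secretion of VLDL (23) and regulators of these genes (16). All 57 had a tested probe. Of them, 6 were higher in NZO, 5 were lower and 46 did not pass the adjusted threshold. By probe these were 6 higher and 6 lower of 77, or 7.79% each way, close to the 6.77% higher and 7.44% lower of all tested probes. The median log2 fold change of the 77 was 0.03. With the slide as a fixed term, which rests on the slide with both strains (1 NZO and 2 B6 arrays), fewer genes passed in either direction. Without NZO 007 and B6 010 the counts were 3 higher and 2 lower.

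Among the other genes of triglyceride synthesis, 3 were higher, 2 were lower and 13 did not pass, with a median log2 fold change of 0.03 over 20 probes. Gpat3, an acyltransferase of the endoplasmic reticulum for the same entry step as Gpam, was expressed 11.9-fold higher in NZO. It is named Agpat9 in the files. Its levels were 2.90, 2.65, 3.04 and 2.84 in NZO 003, 007, 009 and 011 and -0.88, -0.33, -0.91 and -0.75 in B6 009, 010, 011 and 015. No other named gene of the 3 lists had the strains as far apart (log2 fold change 3.58, SE 0.15, limma adjusted p = 3.65e-06). The difference was 3.47 on the first scan day and 3.54 on the second, where NZO 007 was the only NZO mouse. Its size was smaller with normexp background correction (2.92, limma adjusted p = 5.6e-07) and in the deposited table (3.03, limma adjusted p = 2.39e-07). Gpat2, a mitochondrial acyltransferase known mainly from testis, went the other way. It read -0.24, -0.25, -0.67 and -0.29 in the NZO mice and 1.5, 1.52, 1.46 and 1.05 in the B6 mice, in the order used above. The B6 mice were 3.36-fold higher (log2 fold change -1.75, SE 0.15, limma adjusted p = 0.000155).

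Gpd1, which makes glycerol-3-phosphate from a glycolytic intermediate, was higher in NZO, with 7.70 ± 0.15 against 7.09 ± 0.18 in B6 (SD, n = 4). The log2 fold change was 0.61 (SE 0.13, limma adjusted p = 0.0148). Agpat4, of the same family as Agpat2, was lower, with -0.47 ± 0.12 against -0.03 ± 0.02 (SD, n = 4), a log2 fold change of -0.44 (SE 0.09, limma adjusted p = 0.0153). Mogat2, which shares the reaction of Mogat1, was higher by 0.95 (SE 0.26, limma adjusted p = 0.0422). Its lowest NZO mouse lay below the highest B6 mouse, therefore it fell outside the rule for named genes and was added after its values were seen.

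**Figure D4:**
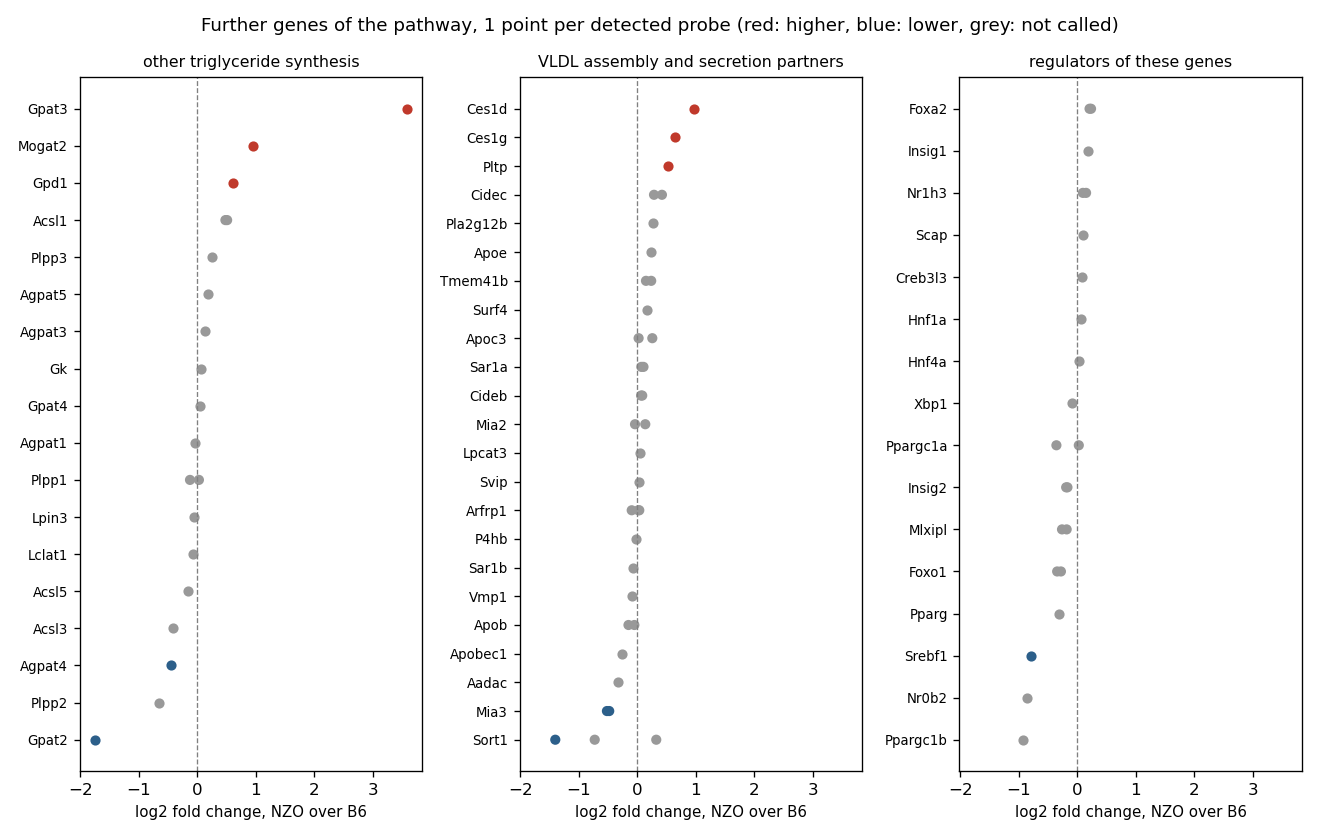
Log2 fold change of NZO over B6 (x axis) for each tested probe of the further genes in 3 lists (y axis), 1 point per probe, red where called higher, blue where called lower and grey where not called. Gpat3 at 3.58 and Gpat2 at -1.75 lie farthest from 0, and most points are grey and close to 0.

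Of the partners in VLDL assembly and secretion, 3 genes were higher, 2 were lower and 18 did not pass, with a median of 0.04 over 35 probes. Apob, the protein on which VLDL is built, did not pass at either probe, with log2 fold changes of -0.05 (limma adjusted p = 0.908) and -0.15 (limma adjusted p = 0.398). Its levels were 6.40, 6.67, 6.33 and 6.64 in NZO and 6.57, 6.01, 6.57 and 7.09 in B6 at the former probe, so the strains overlapped. Ces1d, a carboxylesterase that hydrolyses stored triglyceride in the liver cell, was higher in NZO. It read 7.72, 7.63, 7.93 and 7.69 in NZO 003, 007, 009 and 011 and 6.83, 6.89, 6.70 and 6.64 in B6 009, 010, 011 and 015. All NZO mice were above all B6 mice, by 0.98 in the mean (SE 0.11, limma adjusted p = 0.000548). The related Ces1g was higher by 0.64 (SE 0.16, limma adjusted p = 0.0322). Carboxylesterase genes of this cluster are close copies, and a probe can bind RNA of more than 1 of them.

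Pltp, the phospholipid transfer protein, was higher by 0.53 (SE 0.12, limma adjusted p = 0.018). Mia3, which helps large cargo leave the endoplasmic reticulum, was lower at both probes, by -0.52 (SE 0.13, limma adjusted p = 0.0353) and -0.48 (limma adjusted p = 0.0314). Sort1, the sorting receptor that binds apolipoprotein B, was lower at 1 of its 3 probes. There it read -1.21, -1.46, -0.87 and -1.86 in the NZO mice and -0.18, 0.32, 0.17 and -0.10 in the B6 mice, in the order used above. The log2 fold change at this probe was -1.40 (SE 0.22, limma adjusted p = 0.00344), whereas the other probes gave -0.73 (limma adjusted p = 0.443) and 0.32 (limma adjusted p = 0.664). The probes of Sort1 thus disagreed in direction.

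Among the regulators, 0 genes were higher with limma, 1 was lower and 15 did not pass, with a median of -0.13 over 22 probes. Without adjustment, 0 probes were higher and 3 lower with limma, and 0 and 2 with the methods' t-test, where the shares over all tested probes are those given above. Srebf1, the transcription factor that drives genes of fatty acid and triglyceride synthesis, was the lower one. Its levels were 1.02, 0.49, 0.70 and 0.96 in NZO 003, 007, 009 and 011 and 1.94, 1.52, 1.33 and 1.56 in B6 009, 010, 011 and 015. No NZO mouse reached the lowest B6 mouse, and the log2 fold change was -0.79 (SE 0.17, limma adjusted p = 0.0159). Mlxipl, the carbohydrate-responsive factor, gave -0.26 and -0.18 at its probes (limma adjusted p = 0.539 and 0.565), and Pparg, a nuclear receptor of fat storage, gave -0.31 (limma adjusted p = 0.437). Some of the calls of named list genes were fragile. Mia3 (the probe with the larger change) lost its call in 14 of 21 alternatives, Ces1g in 13, Pltp in 8, Agpat4 in 6, Gpd1 in 5 and Srebf1 in 4. Gpat2, Ces1d and the called Sort1 probe each lost it in 2, among them the slide as a fixed term, whereas Gpat3 lost it in 0.

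The liver label was checked with markers of hepatocytes and of other cells. Alb, Ttr, Apoa1, Cps1 and Tat were above background on all 8 arrays, and 0 of these 5 were called with limma, 0 without adjustment and 1 higher with the methods' t-test. Of the adipocyte markers, Adipoq, Plin1 and Lep were not above background on any array. Car3 of that list was higher in NZO (limma adjusted p = 0.0133). The list's sum, 1.38 times the B6 level, mainly follows the strong signal of the Car3 probe and says little about the other genes. Fabp4 of the same list gave -0.30 (limma adjusted p = 0.241), and the Cidec probes gave 0.29 and 0.42 (limma adjusted p = 0.658 and 0.245). The pancreas markers Cpa1, Cela3b, Prss2 and Pnlip were not above background on any array, whereas Ctrb1 (0.58 in NZO, 0.21 in B6) and Cela1 (-2.40 and -1.87) were above background on all 8 and not called (limma adjusted p = 0.293 and 0.216). Of the 4 red blood cell markers, Hba-a1 and Alas2 were higher in NZO (limma adjusted p = 0.0183 and 0.0023). Hbb-b1 gave 0.81 and Slc4a1 0.61 (limma adjusted p = 0.0704 and 0.322). The summed level ranged from 293 to 470 in NZO and from 155 to 208 in B6, a ratio of 2.0 that mainly follows the Hba-a1 probe. Of the 5 leukocyte markers, Cd68 (1 of 2 probes) and Itgax were lower in NZO (limma adjusted p = 0.0445 and 0.0359). Itgax was above background on 2 of the 4 NZO arrays and was kept for its B6 levels alone, so a lower NZO level was favoured by the choice. Ptprc gave -0.52, Lyz2 0.41 and Cd3e 0.33 (limma adjusted p = 0.083, 0.109 and 0.577). The leukocyte sums ranged from 10.8 to 18.8 in NZO and from 10.8 to 13.4 in B6. The part of these cells in the differences above was not tested.

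Skeletal muscle markers (Ckm, Acta1, Myh4, Tnnt3) stood out on 2 arrays. On the linear scale relative to the percentile, their summed level was 16.4 in NZO 007 and 5.49 in B6 010, and between 0.19 and 1.39 on the other arrays. Without these 2 mice, a choice made after seeing the data, Mttp was higher by 0.76 (limma adjusted p = 0.0118). The dimmer Pnpla3 probe was higher by 2.70 (limma adjusted p = 0.0182). It was kept for its NZO levels alone, so its value is no independent support. The counts of member probes stayed at 2 higher and 0 lower with limma. Gpat3 was higher by 3.78 (limma adjusted p = 5.85e-05) without them, and Srebf1 no longer passed (-0.71, limma adjusted p = 0.0665). With these 6 arrays Gpd1 (0.58), Agpat4 (-0.41), Ces1g (0.71), Pltp (0.49) and Mia3 (-0.34) did not pass either, at sizes that for all but Mia3 were close to those over 8 arrays.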

How the data were processed

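Liver RNA was isolated with TRIzol, samples with an RNA integrity number above the limit of the study were labelled with Cy3, and each was hybridised to a 1-colour Agilent array with 60-base probes. The deposited intensity values come from Agilent's Feature Extraction, in version 11.0.1.1 per the file headers and in version 9.1 per the submitters' processing notes. The processed signal is the intensity after background subtraction within an array, and arrays were not scaled to each other. The deposited table of the whole series, called normalized, equalled the raw median intensity at 59305 of 59305 spots on each array (tolerance 0.01), so it served as an alternative.

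Control spots and 96 to 137 outlier spots per array were left out. The log2 processed signal was set relative to the array's 75th percentile, and spots of a probe were averaged. Probes well above background on all 4 arrays of a strain were kept (27623 of 55681). NZO and B6 were compared in limma 3.58.1 (R 4.3.3) with no covariate, with Benjamini-Hochberg adjustment over all kept probes and calls at 0.05. The methods' t-test (with unequal variances) and thresholds of 0.05 (taken as unadjusted) and 0.7 (log2) were run as alternatives. Plots were drawn in Python 3.11.15 (matplotlib 3.10.9, pandas 2.3.3).

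The members, gene lists and tests were chosen with earlier results of these data known. Named were all members, of each list up to 8 genes with the largest called change and no overlap between the strains, and Apob, Gpd1, Srebf1, Mlxipl and Pparg. Genes carry the names of the array design, with older names updated by hand. Coordinates are those of mm9 in the files. With no annotation of that build, the exon or untranslated region of a probe is not given here. Slides numbered 5 and scan days 2, the first day with 3 NZO and 2 B6 arrays and the second with 1 NZO (NZO 007) and 2 B6 arrays. A single slide held both strains (1 NZO, 2 B6), so a fit with the slide as a fixed term takes its strain difference from those arrays alone. The mouse numbers 009 and 011 occur in both strains, but deviations of same-numbered mice correlated at -0.26 and 0.00, so they were not treated as pairs. Other alternatives were normexp (offset 50), quantile or median scaling, a percentile over detected probes, other filters, slide or scan day as a term, the mean over a gene's probes and leaving out each mouse.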

Additional observations from a re-analysis of the deposited data

Results flagged for a closer look

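Among 60 strain groups of 4 mice at the member probes and the named list genes, 7 had a mouse whose gap to the nearest other mouse made up most of the range of the group (Dixon's test at 95%). Chance flags about 1 group in 20. The levels below are log2 relative to the 75th percentile of the array. Dgat2 was 8.10 in B6 015, above the other B6 mice. Mttp was 3.76 in B6 010, above the other B6 mice but below every NZO mouse. The brighter Lpin2 probe was 0.94 in NZO 011, below the other NZO mice. Gpat2 was -0.67 in NZO 009 and 1.05 in B6 015, each the lowest of its strain. Gpd1 was 7.93 in NZO 003, the highest NZO mouse. The Mia3 probe with the larger change was 0.38 in NZO 007, the lowest NZO mouse.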

How the results depend on the processing

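Mttp, at 0.37 to 0.88, and the dimmer Pnpla3 probe, at 0.77 to 3.48, had higher means in NZO in the 21 alternatives that tested each, and 4 and 2 of these ended their calls. For the Pnpla3 probe, kept for its NZO levels alone, this direction was built into the choice and shows no stability. Counts are given as higher and lower in NZO for all detected probes (1871 and 2056 as reported), member probes (2 and 0) and genes of the 3 pathway lists (6 and 5), with only the values that moved. The deposited table gave 989 and 3354 probes, 1 and 2 member probes and 2 and 9 list genes, with a median over all probes of -0.15 against 0.01. Member probes were 2 lower with the scan day as a term and with the thresholds of the methods, and 1 higher when all 8 arrays had to be above background. The slide as a fixed term gave 498 and 989 probes, 1 member probe higher and 1 and 1 list genes. The methods' t-test gave 1193 lower probes, 0 member probes higher and 3 list genes higher (at the methods' thresholds 1290 and 1609 probes, and 830 and 890 after Benjamini-Hochberg). List genes were 8 lower with normexp, 2 lower with the median of each array, 2 and 3 without a filter, 3 higher at the methods' thresholds, and 3 and 2 without NZO 007 and B6 010 (added after seeing the data). Leaving out each mouse gave 0 to 1 member probes lower, the 1 without B6 011. The cause was not tested.

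The mouse number as a replicate block, which rests on the 2 numbers shared by the strains, gave 72 and 134 probes, 0 member probes higher, and 1 and 0 list genes. It ended the calls of Mttp (0.67, limma adjusted p = 0.137) and Pnpla3 (2.42, limma adjusted p = 0.186). The median raw signal of an array was 1.76 to 2.06 times its local background, and levels near background limit what can be read for Mogat1, Pnpla3 and the dimmer Lpin1 and Lpin2 probes.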
